A study of Mus musculus with 2 samples.

Results

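Of 27998 genes counted in single cells of healing mouse wounds, 10 that make or move the lipids of the skin surface are described here: Scd1, Elovl3, Elovl4, Fa2h, Cers3, Cers4, Far2, Abca12, Alox12b and Aloxe3. Each symbol matched 1 gene in the count tables of both libraries. The genes were chosen by name, with the differences between the libraries in keratinocytes already known, so those differences are given as a description and no test is drawn from them.

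Keratinocytes of the upper epidermis build a water barrier from very long ceramides, which leave the cell in lamellar granules and are in part bound to the protein envelope of the dead cell. Sebocytes, the cells of the sebaceous gland beside the hair follicle, fill with wax esters, triglycerides and cholesterol esters and burst to release sebum. Both programmes start from the same steps of fatty acid synthesis, desaturation and elongation and then use different enzymes. Scd1 introduces the first double bond into saturated fatty acids. Elovl3 and Elovl4 lengthen fatty acids, and Elovl4 makes the ultra-long chains of acylceramides. Fa2h adds a hydroxyl group to the fatty acid, Cers3 and Cers4 join fatty acids to the sphingoid base, and Far2 reduces fatty acids to the alcohols of wax esters. Abca12 loads lipid into lamellar granules, and Alox12b and Aloxe3 oxidise the linoleate of acylceramides before these are attached to the envelope.

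The data are 2 libraries, WT_LW and TLR9agonist_LW, from the dorsal skin of male C57BL/6J mice of wild-type genotype aged 6 to 8 weeks. All mice carried a large circular wound of 1.8 cm, treated at days 0, 3 and 6 with PBS in WT_LW or with the TLR9 agonist ODN2395, a CpG oligonucleotide, in TLR9agonist_LW (4 micrograms each time). One figure legend of the study names a control oligonucleotide for WT_LW, where its methods give PBS. Punches 5 mm across were taken from the centre of the wound 2 days after the scab had come off. Epidermis and dermis were separated with enzymes, dissociated and recombined, and dead cells were removed. The study asked how TLR9 activation acts on healing and on the new hair follicles that large wounds form. Each library holds cells pooled from several mice, stated as 6 mice per group in one place and as 5 samples per group in another. With 1 library per group there is no replicate, so no test between the libraries was possible, and mice, dissection, dissociation and treatment cannot be told apart. Every interval below is a 95% interval that covers counting error only.

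WT_LW held 99374045 unique molecular identifiers (UMIs, each a counted RNA molecule) in 12800 cell barcodes, and TLR9agonist_LW held 132339022 UMIs in 13751. After filtering, 10395 and 11811 cells were used. Keratinocytes, gated by marker genes that include none of the 10, were 687 cells (6.61%) with a median of 9609 UMIs in WT_LW and 1078 cells (9.13%) with a median of 22232.5 UMIs in TLR9agonist_LW. Depth therefore differed between the libraries, and levels are given as UMIs per 1000000 of the summed UMIs of a group of cells (CPM). All names of cell classes and subsets mean cells that resemble the type by its markers. Of the barcodes, 47 occurred in both libraries.

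Keratinocytes were divided by marker scores into subsets that are ranges of a score and not separate types. WT_LW had 143 basal-like cells and TLR9agonist_LW had 201. In the same order there were 167 and 224 spinous-like cells, 70 and 67 granular-like cells, and 60 and 384 wound-activated-like cells. Upper hair follicle-like cells numbered 97 and 60, bulge-like cells 61 and 52, cycling-like cells 38 and 84, and sebocyte-like cells 36 and 4. Wound-activated-like cells, led by S100a9, S100a8 and Krt6b, made up 8.73% (6.73 to 11.1) of the keratinocytes of WT_LW and 35.6% (32.8 to 38.6) of those of TLR9agonist_LW. Their median depth was 2554 and 29337.5 UMIs, and that of granular-like cells 4593.5 and 24815 UMIs, so these subsets of WT_LW were far shallower than those of TLR9agonist_LW.

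The 10 genes fell into a group measured mainly in sebocyte-like cells, a group measured mainly in the differentiated epidermis, and Elovl4 in both. In WT_LW the 36 sebocyte-like cells were 0.346% of all cells and held 0.917% of all UMIs. They held 81.4% of all Elovl3 UMIs of the library, 78.6% of Fa2h, 78.5% of Far2, 66.0% of Scd1, 56.1% of Elovl4 and 37.8% of Cers4. By contrast they held 0.602% of Cers3 UMIs, 1.83% of Abca12 UMIs and none of the 70 UMIs each of Alox12b and Aloxe3. The other keratinocytes held 86.4% of Cers3, 82.7% of Abca12, 74.3% of Alox12b, 61.4% of Aloxe3 and 26.7% of Elovl4.

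**Figure D1:**
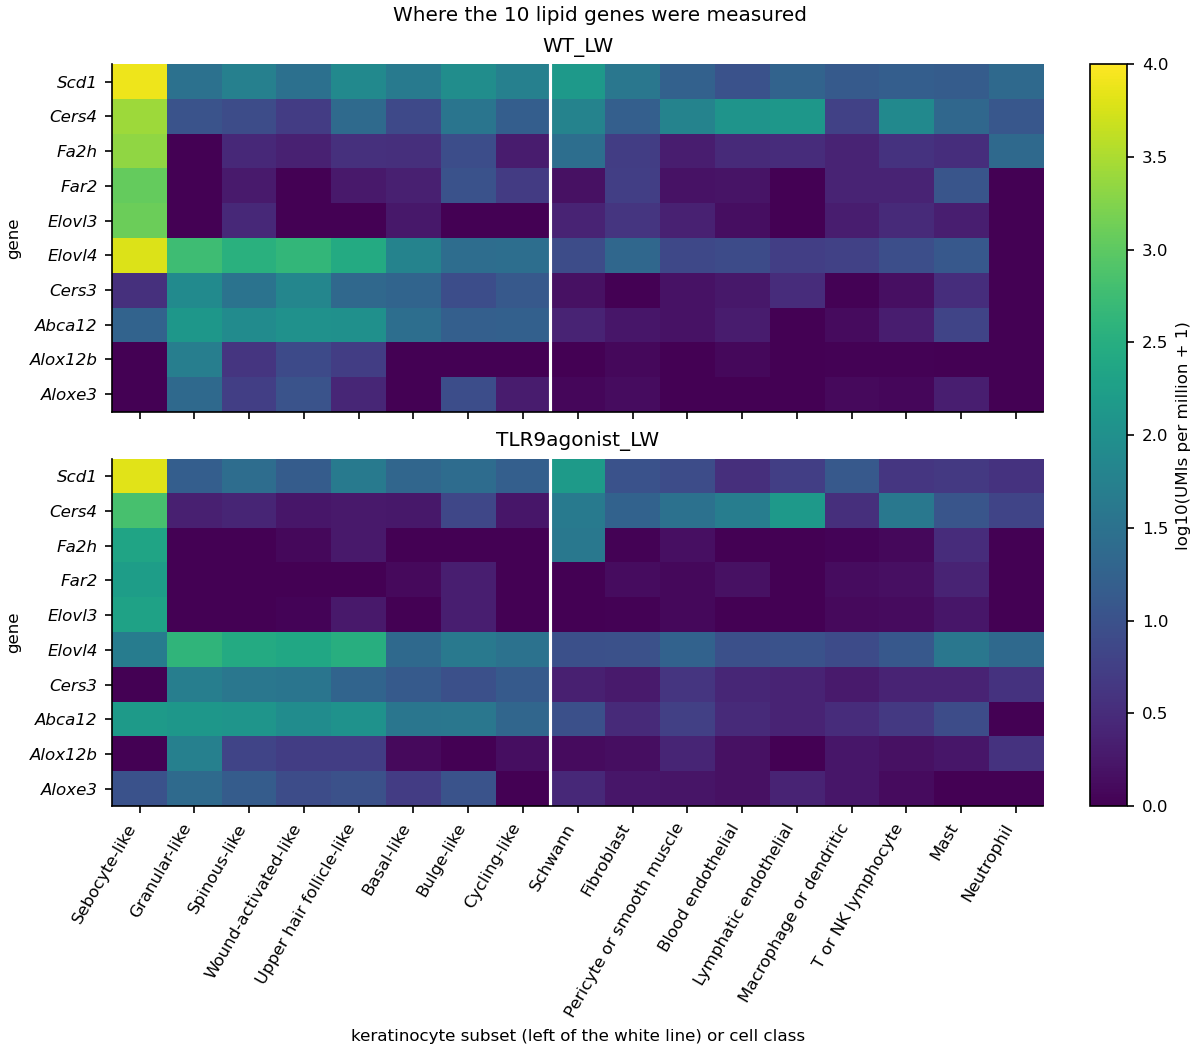
Colour gives the level of each gene (rows) as log10(CPM + 1) in keratinocyte subsets and other cell classes (columns), for WT_LW above and TLR9agonist_LW below. Scd1, Cers4, Fa2h, Far2 and Elovl3 are brightest in sebocyte-like cells, and Cers3, Alox12b and Aloxe3 in the epidermal columns to their right. Abca12 is brightest in those epidermal columns in WT_LW. In TLR9agonist_LW it is highest in the 4 sebocyte-like cells, at 148 CPM against 128 CPM in granular-like cells, with overlapping intervals. Elovl4 in WT_LW is bright in both sebocyte-like and epidermal columns.

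Across all keratinocytes, 6 of the 10 genes were at least 2-fold lower in TLR9agonist_LW than in WT_LW, 1 was at least 2-fold higher and 3 lay between. All 10 had at least 50 UMIs over both libraries. Of the 11057 genes with that many UMIs in keratinocytes, 24.8% were at least 2-fold lower in TLR9agonist_LW and 2.07% at least 2-fold higher. On the log2 scale the ratio of TLR9agonist_LW to WT_LW had a median of -2.73 over the 10 and of -0.58 over all these genes. Because the 10 genes were chosen on this contrast, nothing is read from the excess.

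The lower genes were those of the sebocyte group. Fa2h stood at 165 CPM (158 to 173) among the keratinocytes of WT_LW and 1.09 CPM (0.711 to 1.60) among those of TLR9agonist_LW, a 152-fold difference. Far2 was at 85.6 CPM (80.1 to 91.4) and 0.838 CPM (0.512 to 1.29). Elovl3 was at 93.9 CPM (88.1 to 99.9) and 1.05 CPM (0.678 to 1.55). None of these 3 genes reached 30 UMIs in the 1078 keratinocytes of TLR9agonist_LW, with 26, 20 and 25 UMIs against 1749, 905 and 992 in WT_LW. Cers4 was at 205 CPM (196 to 213) and 4.23 CPM (3.45 to 5.14), and Scd1 at 640 CPM (625 to 655) and 48.5 CPM (45.7 to 51.3). Elovl4 was at 666 CPM (650 to 681) and 199 CPM (193 to 205), a log2 ratio of -1.74 (-1.80 to -1.69). The gap of Elovl4 was the narrowest of the 6.

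None of the epidermal group was at least 2-fold lower. For Cers3 the levels were 27.3 CPM (24.3 to 30.7) and 28.5 CPM (26.4 to 30.7), and the log2 ratio of 0.06 had an interval from -0.14 to 0.26. Abca12 was at 61.1 CPM (56.5 to 66.0) and 80.3 CPM (76.7 to 84.0). Alox12b was at 4.92 CPM (3.67 to 6.45) and 6.58 CPM (5.59 to 7.69), from 52 and 157 UMIs, and the interval of its log2 ratio, -0.04 to 0.90, held 0. Aloxe3 was at 4.07 CPM (2.94 to 5.48) and 8.42 CPM (7.30 to 9.67), a log2 ratio of 1.05 (0.57 to 1.56) from 43 and 201 UMIs. When each cell counted equally, in place of each UMI, the log2 ratios were 1.01 for Cers3, 1.21 for Abca12, 1.89 for Aloxe3 and -0.08 for Alox12b, so the direction of Alox12b turned. The direction of Cers3 also turned, to -0.51 with the same subset make-up in both libraries, -0.13 with a stricter filter on cells, -0.06 with Leiden clusters in place of the marker gate, -0.04 without sebocyte-like cells and -0.02 in keratinocytes of at least 5000 UMIs.

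**Figure D2:**
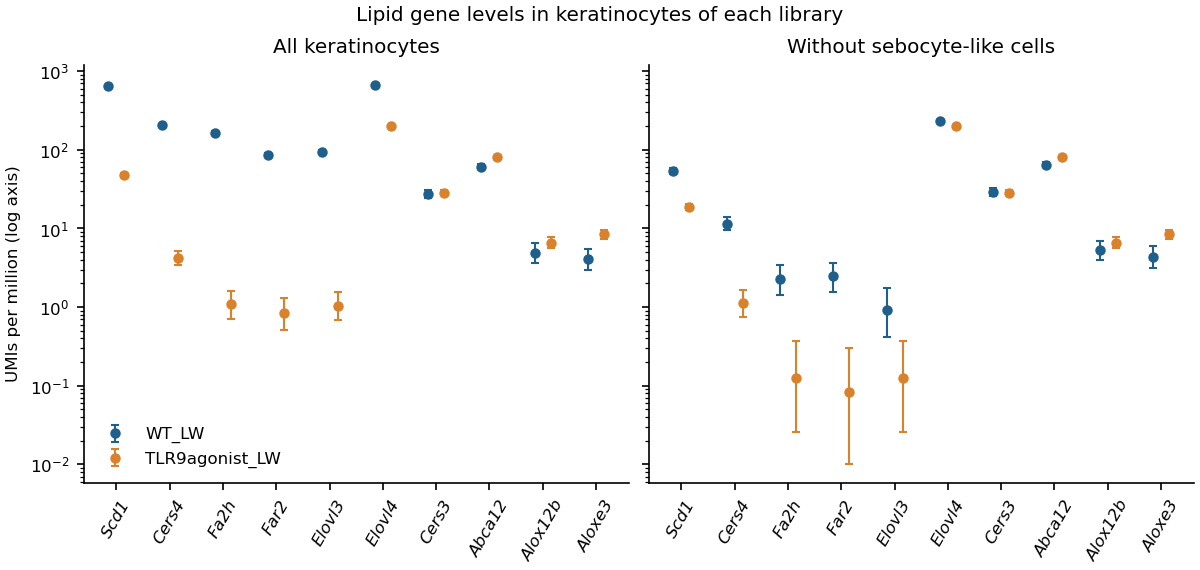
Points give CPM on a log axis with exact Poisson 95% intervals for each gene in WT_LW (blue) and TLR9agonist_LW (orange), over all keratinocytes on the left and without sebocyte-like cells on the right. Scd1 stands at 640 and 48.5 CPM on the left and at 53.1 and 18.8 CPM on the right, and the libraries nearly meet for Elovl4 on the right.

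A large part of these differences lay in few cells. Sebocyte-like cells were 5.24% (3.70 to 7.18) of the keratinocytes of WT_LW and 0.371% (0.101 to 0.947) of those of TLR9agonist_LW. Within the keratinocytes of WT_LW they held 99.1% of Elovl3 UMIs, 98.7% of Fa2h, 97.3% of Far2, 94.8% of Cers4, 92.3% of Scd1 and 67.7% of Elovl4. The 3 cells with the most UMIs of a gene alone held 53.7% of the keratinocyte UMIs of Elovl3, 47.7% of those of Fa2h and 43.9% of those of Elovl4 in WT_LW. In clusters formed without the 10 genes, 1 cluster of all cells had sebocyte markers in the lead, and it held 66 cells of WT_LW and 3 of TLR9agonist_LW. Of the 66, 22 had been set aside by the marker gate as mixed with another class.

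Without sebocyte-like cells, 7 of the 10 genes kept at least 50 UMIs, and 2 of these, Cers4 and Scd1, were at least 2-fold lower in TLR9agonist_LW. Over all 10918 genes measured in the same cells 21.8% were at least 2-fold lower and 2.03% at least 2-fold higher, and none of the 7 was at least 2-fold higher. As the 10 genes were chosen on the same contrast, nothing is read from this count either. Cers4 was at 11.5 CPM (9.52 to 13.9) and 1.14 CPM (0.749 to 1.65), and Scd1 at 53.1 CPM (48.7 to 57.9) and 18.8 CPM (17.1 to 20.6). Elovl4 was at 232 CPM (222 to 242) and 200 CPM (194 to 205), a log2 ratio of -0.22 (-0.29 to -0.14). The median gene in these cells had a log2 ratio of -0.54. Relative to that median gene, Elovl4 was higher in TLR9agonist_LW by 0.33, Cers3 by 0.51, Abca12 by 0.85, Alox12b by 0.86 and Aloxe3 by 1.48. Scd1 (-0.96) and Cers4 (-2.80) stayed lower. On this scale Aloxe3 was past 2-fold higher and Cers4 past 2-fold lower, beside 5.65% and 6.28% of all genes.

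The 3 genes left out had few counts there. Elovl3 had 9 UMIs in WT_LW and 3 in TLR9agonist_LW, Fa2h 22 and 3, and Far2 24 and 2. Their ratios of TLR9agonist_LW to WT_LW on the log2 scale had wide intervals, -5.39 to -0.86 for Elovl3, -6.54 to -2.42 for Fa2h and -7.99 to -2.86 for Far2. Other cell classes held traces of them in the same libraries. T or NK lymphocytes of WT_LW were at 2.00 CPM of Elovl3, 2.83 CPM of Fa2h and 1.48 CPM of Far2, against 0.920, 2.25 and 2.45 CPM in the keratinocytes without sebocyte-like cells, with overlapping intervals. At those levels expression in these keratinocytes cannot be told apart from free RNA. For Scd1 the lymphocytes of WT_LW were at 14.5 CPM and those of TLR9agonist_LW at 3.33 CPM, so that gene was lower in TLR9agonist_LW in those cells as well, at a level below that of the keratinocytes.

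**Figure D3:**
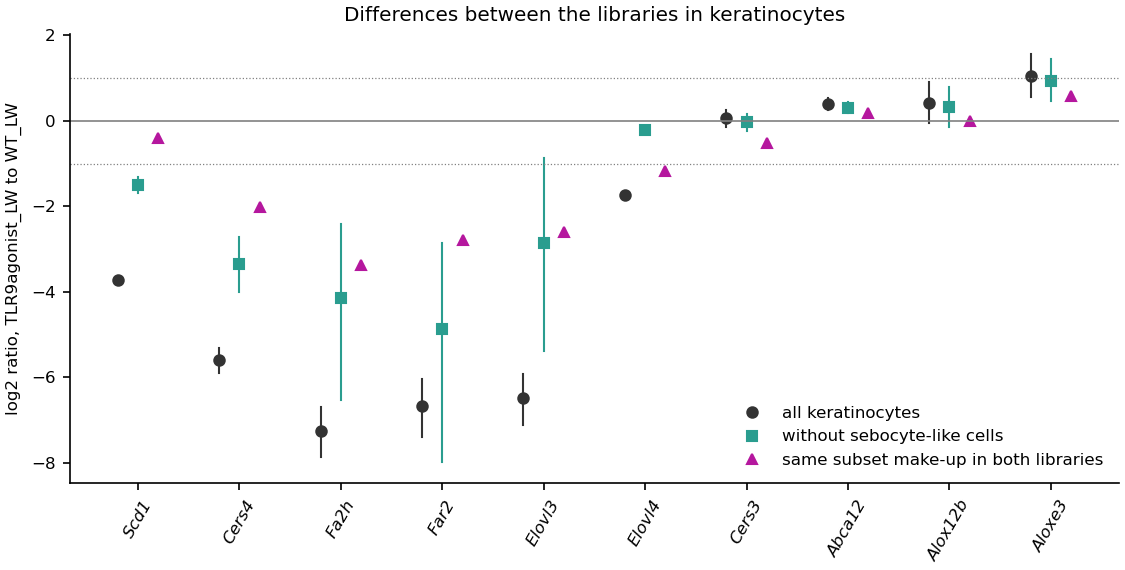
The log2 ratio of TLR9agonist_LW to WT_LW is drawn for each gene over all keratinocytes (circles), without sebocyte-like cells (squares) and with the subsets given the same share of UMIs in both libraries (triangles), with exact 95% intervals for the first 2 and dotted lines at 2-fold. Scd1 moves from -3.72 to -1.50 and -0.39 and Elovl4 from -1.74 to -0.22 and -1.18, whereas Abca12 stays between 0.18 and 0.39.

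Sebocyte-like cells themselves differed between the libraries in what they held. In TLR9agonist_LW only 4 such cells were found, with 19089, 25583, 27129 and 36029 UMIs. Scd1 was high in both sets of cells, at 7944 CPM (7748 to 8143) in WT_LW and 6594 CPM (6118 to 7097) in TLR9agonist_LW. Every one of the 4 cells carried it, with 46, 200, 179 and 286 UMIs in the same order. The other genes of the group were lower in these cells. Cers4 was at 2609 CPM (2498 to 2725) and 686 CPM (539 to 862), Fa2h at 2198 CPM (2096 to 2304) and 213 CPM (135 to 320), Elovl3 at 1251 CPM (1174 to 1332) and 204 CPM (128 to 309), and Far2 at 1121 CPM (1049 to 1198) and 167 CPM (98.9 to 264). Elovl4 differed most, with 6066 CPM (5895 to 6241) from 4766 UMIs in WT_LW and 46.4 CPM (15.1 to 108) from 5 UMIs in TLR9agonist_LW. The 4 cells held 2, 1, 1 and 1 UMIs of it.

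Among the 36 sebocyte-like cells of WT_LW the levels spread widely. Per 10000 UMIs of a cell, Scd1 ran from 2.14 to 300 with a median of 45.1, Cers4 from 3.74 to 66.9 with a median of 17.3, and Fa2h from 0 to 88.9 with a median of 11.8. Elovl4 ran from 0 to 357 with a median of 17.6, and 24 of the 36 cells had a UMI of it. Awat1, the wax synthase of late sebocytes, was detected in 21 of the 36 cells. With Awat1 detected, 20 of 21 cells had Elovl4, at 10664 CPM over these cells. Without it, 4 of 15 cells had Elovl4, at 117 CPM, although their median depth was higher, at 20923 UMIs against 14629. Fa2h was at 3570 and 423 CPM in the same division, Elovl3 at 2026 and 248, Far2 at 1591 and 514, Scd1 at 11792 and 2964, and Cers4 at 3301 and 1714. The contrast was thus widest for Elovl4 and narrowest for Cers4. Medians per 10000 UMIs of a cell were closer for Scd1, at 62.0 and 33.4, and for Cers4, at 18.7 and 15.1. For Elovl4 the medians were 35.4 and 0. No Awat1 UMI was counted in the 4 cells, or in any cell, of TLR9agonist_LW, and Awat1 was used to gate the cells but is not 1 of the 10 genes. Between the 15 cells of WT_LW without Awat1 and the 4 cells, the intervals overlapped for Elovl4 and Elovl3. They were 83.4 to 159 and 15.1 to 108 CPM for Elovl4, and 198 to 307 and 128 to 309 CPM for Elovl3. Cers4, Fa2h and Far2 were lower in the 4 cells with intervals apart, and Scd1 was higher, at 2964 and 6594 CPM.

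**Figure D4:**
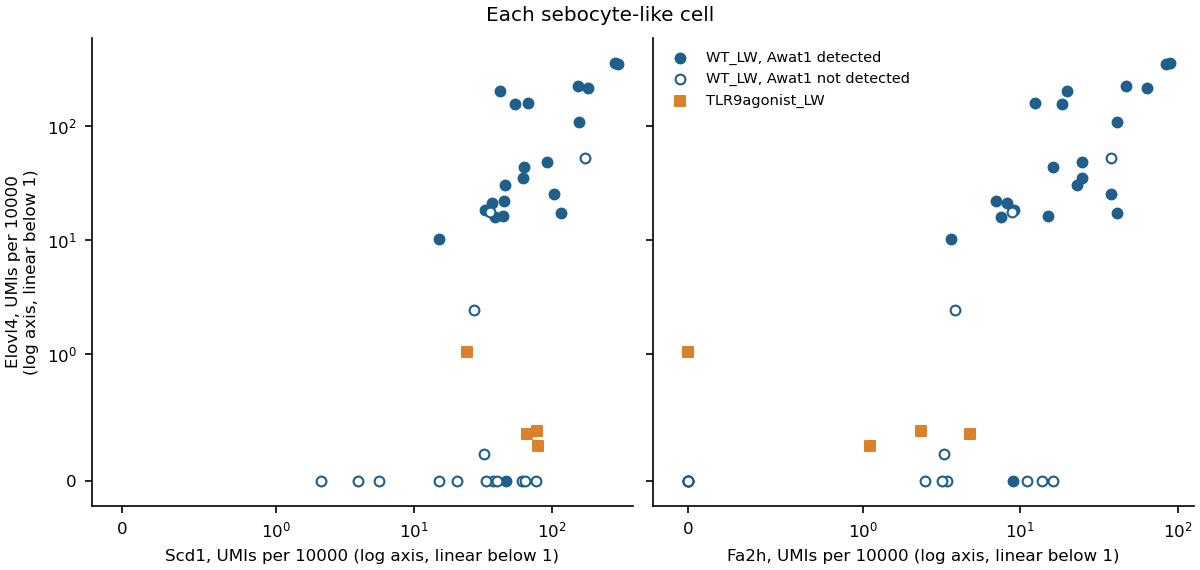
Each point is 1 sebocyte-like cell, with Elovl4 (vertical) against Scd1 (left) and Fa2h (right), all in UMIs per 10000 on axes that are logarithmic above 1 and linear below. Filled circles are the 21 cells of WT_LW with Awat1, open circles the 15 without, and squares the 4 cells of TLR9agonist_LW, which lie at or below 1.05 for Elovl4 and between 24.1 and 79.4 for Scd1.

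Few UMIs of the epidermal genes were in cells gated as sebocyte-like. The 36 cells of WT_LW held 2 UMIs of Cers3, 14 of Abca12 and 0 of Alox12b and Aloxe3. In the 4 cells of TLR9agonist_LW, Abca12 was at 148 CPM (84.8 to 241) from 16 UMIs, against 17.8 CPM (9.74 to 29.9) in WT_LW, and all 4 cells carried it. Of the marker lists, that of sebocytes held a median of 0.458% of a cell's UMIs in WT_LW and 0.713% in TLR9agonist_LW in these cells, against 0.00172% and 0.00419% in the other keratinocytes. Markers of fibroblasts stood at 0.111% and 0.0961%, close to the 0.125% and 0.113% of the other keratinocytes, and the median was at most 0.0238% for the lists of all other classes but keratinocytes. The gate itself used the sebocyte list and a lead over the other classes. These shares therefore follow in part from the gate and are no test of how pure the cells are. Keratinocyte markers held 0.998% and 1.23% in sebocyte-like cells, against 4.81% and 5.41% in the other keratinocytes.

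In both libraries Elovl4, Cers3, Abca12, Alox12b and Aloxe3 were highest in granular-like cells, sebocyte-like cells aside, though some intervals overlapped those of other subsets. The sequences just before the start sites of Elovl4, Cers3 and Abca12 are shown because these 3 genes had this pattern and their last 100 bases before the start lie wholly outside the gene as GENCODE annotates it. They come from the RefSeq annotation of GRCm38.p6, are written 5′ to 3′ along the gene's strand, and end at the last base before the start site. Capitals mark the letters GGGCGG, the core of the GC box bound by Sp1 family factors, read on either strand. A match that overlaps one already marked is left in small letters, as at the end of the marked stretch of Elovl4.
Cers3, chr7:66743404-66743503, plus strand: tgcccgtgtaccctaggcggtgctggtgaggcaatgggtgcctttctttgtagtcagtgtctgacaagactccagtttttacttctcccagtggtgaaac
Elovl4, chr9:83806306-83806405, minus strand: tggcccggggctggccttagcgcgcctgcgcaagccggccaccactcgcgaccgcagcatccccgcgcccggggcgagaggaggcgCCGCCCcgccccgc
Abca12, chr1:71414911-71415010, minus strand: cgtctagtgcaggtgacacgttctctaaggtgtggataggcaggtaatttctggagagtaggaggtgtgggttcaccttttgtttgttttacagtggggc

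Promoter sequence was at hand for 6 of the 10 genes, Cers3, Cers4, Elovl4, Far2, Abca12 and Alox12b. In the 250 bases before the start site, GGGCGG was found on either strand in 4 of the 6, Cers4, Elovl4, Far2 and Alox12b, and in 32.7% of 32851 mouse promoters of that length. The TATA box letters TATAAA were in none of the 6 and in 12.4% of all promoters. The letters CCAAT were in none of the 6 and in 33.8% of all, and for the E-box CACGTG it was none and 6.02%. The matches are letters only and were not set against binding data.

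Cers3, whose ceramides carry the ultra-long acyl chains, was highest in granular-like cells, at 80.1 CPM (59.5 to 106) in WT_LW and 49.5 CPM (39.2 to 61.8) in TLR9agonist_LW. It stood at 66.4 CPM (49.1 to 87.8) and 34.4 CPM (30.8 to 38.3) in wound-activated-like cells and at 32.0 CPM (26.0 to 38.9) and 38.2 CPM (32.6 to 44.5) in spinous-like cells. In WT_LW the granular-like and wound-activated-like intervals overlapped, while the spinous-like interval lay below both. Basal-like cells were at 18.7 and 12.7 CPM, upper hair follicle-like cells at 21.2 and 18.5, cycling-like cells at 11.9 and 12.7, and bulge-like cells at 7.68 and 8.38. Cers3 was lower in TLR9agonist_LW in 4 of the 7 subsets other than sebocyte-like cells and higher in 3, and the interval of the ratio lay off 0 in the granular-like and wound-activated-like cells only.

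Elovl4 outside the sebocyte-like cells had a similar order in WT_LW, while in TLR9agonist_LW upper hair follicle-like cells came next after granular-like cells. Granular-like cells were at 582 CPM (523 to 645) in WT_LW and 411 CPM (380 to 444) in TLR9agonist_LW, wound-activated-like cells at 442 CPM (395 to 492) and 242 CPM (232 to 252), and spinous-like cells at 340 CPM (320 to 361) and 281 CPM (266 to 298). Upper hair follicle-like cells were at 275 CPM (246 to 306) and 323 CPM (291 to 358), and were the only subset in which the interval of the ratio lay above 0. Basal-like cells were at 59.9 and 22.7 CPM. Bulge-like and cycling-like cells lay between 26.1 and 40.7 CPM in the 2 libraries. Thinned to 1500 UMIs per cell, a UMI of Elovl4 was found in 44.6% of granular-like cells from WT_LW and 41.5% from TLR9agonist_LW, over 65 of the 70 and 65 of the 67 cells, the others being shallower. Before thinning the shares were 71.4% and 91.0%. In T or NK lymphocytes the thinned shares were 1.18% and 1.97%, with median depths before thinning of 4399 and 4670 UMIs. Relative to the median gene of the same subset, the log2 ratio of Elovl4 was -1.13 in basal-like, -0.60 in wound-activated-like, -0.28 in granular-like, 0.01 in spinous-like, 0.48 in cycling-like, 0.57 in upper hair follicle-like and 0.82 in bulge-like cells.

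Abca12, the lipid carrier of lamellar granules, was at 131 CPM (105 to 163) in WT_LW and 128 CPM (111 to 147) in TLR9agonist_LW in granular-like cells. Its log2 ratio there was -0.03 (-0.41 to 0.35). In spinous-like cells it was at 84.4 CPM (74.5 to 95.2) and 120 CPM (110 to 131), a log2 ratio of 0.51 (0.29 to 0.72). Wound-activated-like and upper hair follicle-like cells lay between 88.3 and 107 CPM, with overlapping intervals. Basal-like cells were at 27.1 and 36.2 CPM, and bulge-like cells at 15.4 CPM (7.37 to 28.3) and 37.1 CPM (25.2 to 52.7).

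Alox12b and Aloxe3 act one after the other on the same lipid, and their genes lie next to each other on chromosome 11 of GRCm38, on the same strand, with 7874 bases between the end of Aloxe3 (start 69125896, end 69149115) and the start of Alox12b (start 69156989, end 69169792). Alox12b was highest in granular-like cells, at 51.3 CPM (35.1 to 72.4) in WT_LW and 53.4 CPM (42.6 to 66.1) in TLR9agonist_LW, and at most 6.78 CPM in any other subset. Granular-like cells held 32 of its 52 keratinocyte UMIs in WT_LW and 84 of 157 in TLR9agonist_LW, and wound-activated-like cells held 5 and 42. Aloxe3 was at 22.4 CPM (12.3 to 37.6) and 23.5 CPM (16.5 to 32.4) in granular-like cells and reached 13.8 CPM (10.5 to 17.8) in spinous-like cells of TLR9agonist_LW, against 4.48 CPM (2.45 to 7.51) among those from WT_LW. It lay at 9.49 and 7.38 CPM in wound-activated-like cells, at 7.68 and 9.58 in bulge-like cells and at 1.70 and 8.80 in upper hair follicle-like cells. In basal-like cells Aloxe3 had 0 UMIs in WT_LW, with an upper limit of 1.54 CPM, and 15 UMIs in TLR9agonist_LW, or 4.05 CPM (2.27 to 6.69). The granular-like cells of both libraries thus had levels of Abca12, Alox12b and Aloxe3 whose ratios had intervals holding 0, -0.41 to 0.35, -0.55 to 0.69 and -0.85 to 1.07 on the log2 scale, which leaves room for a difference of up to 2.10-fold in Aloxe3.

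**Figure D5:**
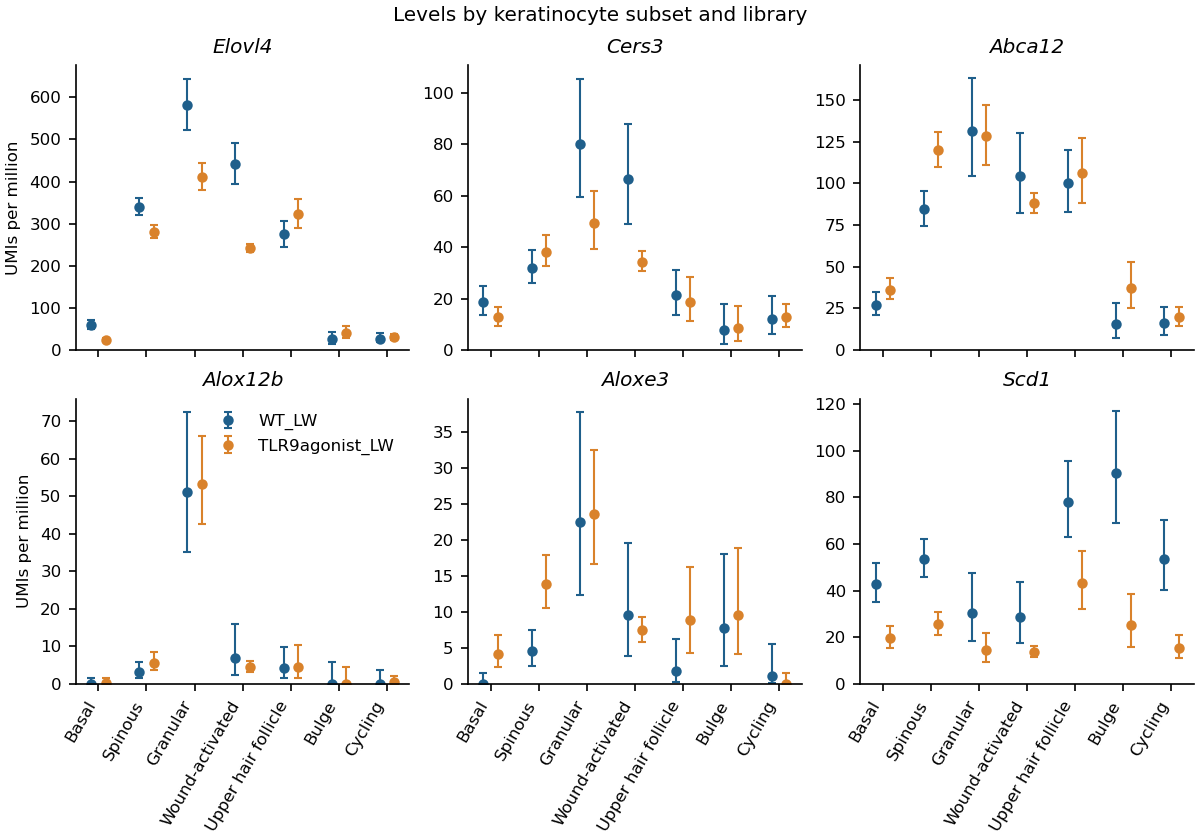
Points give CPM with exact Poisson 95% intervals for 6 genes in 7 keratinocyte subsets of WT_LW (blue) and TLR9agonist_LW (orange), each panel with its own linear axis from 0. The 5 genes other than Scd1 have their highest point in granular-like cells in both libraries, and Scd1 is lower in TLR9agonist_LW in each of the 7 subsets. For Cers3, Abca12 and Aloxe3 the granular-like interval overlaps that of another subset in each library.

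By summed UMIs, Scd1 and Cers4 were lower in TLR9agonist_LW in all 8 subsets. For Scd1 the interval of the ratio, which covers counting error only, lay below 0 in 8 of 8, and for Cers4 in 7 of 8. In sebocyte-like cells the median of Scd1 per cell went the other way. It was 45.1 per 10000 UMIs in the 36 cells of WT_LW and 72.1 in the 4 cells of TLR9agonist_LW. The median of Cers4 kept its direction, at 17.3 and 6.78. Outside the sebocyte-like cells Scd1 was highest in bulge-like cells of WT_LW, at 90.7 CPM (69.0 to 117) against 25.2 CPM (15.6 to 38.5) in TLR9agonist_LW, followed by upper hair follicle-like cells at 78.0 CPM (62.9 to 95.6) and 43.1 CPM (31.9 to 57.0). Spinous-like cells were at 53.4 and 25.6 CPM, basal-like cells at 42.9 and 19.7, and granular-like cells at 30.5 and 14.6. Cers4 was also highest in bulge-like cells of WT_LW, at 35.3 CPM (22.4 to 53.0) against 5.99 CPM (1.94 to 14.0), and stood at 22.9 CPM (15.1 to 33.3) and 0.880 CPM (0.0223 to 4.90) in upper hair follicle-like cells. In cells thinned to 1500 UMIs, 8.66% of keratinocytes other than sebocyte-like cells had a UMI of Scd1 in WT_LW and 2.73% in TLR9agonist_LW, against 2.21% and 0.254% of T or NK lymphocytes. The unthinned shares were 38.7% and 29.2% in these keratinocytes and 7.07% and 1.71% in the lymphocytes. These shares rest on 566 of 651 and 1027 of 1074 keratinocytes. The level of Scd1 in lymphocytes moved with that in keratinocytes, and the part of free RNA in the difference was not tested. Cers4 in keratinocytes other than sebocyte-like cells was at 11.5 and 1.14 CPM, below the 63.4 and 18.8 CPM over all cells. The part of free RNA in the subset levels of Cers4 and in their difference was not tested either.

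Outside the epidermis 3 of the 10 genes had a level of their own. Scd1 was lower in TLR9agonist_LW in 8 of the 9 classes there, with the interval of the ratio below 0 in 5, for example in fibroblasts at 37.7 and 9.04 CPM. Schwann cells were the only class where it was not lower, but macrophages or dendritic cells were nearly level too. The latter had 12.6 CPM (10.9 to 14.5) of Scd1 in WT_LW and 12.1 CPM (10.1 to 14.2) in TLR9agonist_LW. The interval of their ratio, -0.39 to 0.25 on the log2 scale, held 0. Relative to the median gene of the class, the ratio was 0.18 in these cells and 0.25 in Schwann cells. Scd1 was at 143 CPM (134 to 153) in the Schwann cells of WT_LW and 150 CPM (137 to 163) in those of TLR9agonist_LW, a log2 ratio of 0.06 (-0.10 to 0.22). Schwann cells are the glia of peripheral nerve, and Fa2h makes the hydroxylated lipids of myelin. Fa2h was at 26.4 CPM (22.4 to 30.9) and 39.1 CPM (32.6 to 46.5) in them, and at most 4.36 CPM in the other classes, leaving aside 2 UMIs in the 29 neutrophils of WT_LW. Cers4 was measured in many classes, highest in lymphatic endothelium at 131 CPM (99.4 to 169) and 138 CPM (111 to 169), then in blood endothelium at 116 CPM (107 to 126) and 47.9 CPM (41.4 to 55.1), and in WT_LW the intervals of these classes overlapped. T or NK lymphocytes were at 77.2 and 38.3 CPM of Cers4, Schwann cells at 60.4 and 42.8, pericytes or smooth muscle at 59.7 and 29.7, and fibroblasts at 15.2 and 16.9. Cers4 was lower in TLR9agonist_LW in 7 of 9 classes outside the epidermis, with the interval below 0 in 5 of them, beside a median gene of -0.47 in blood endothelium and -0.27 in lymphocytes. The non-epithelial classes held 52.3% of all Cers4 UMIs in WT_LW and 83.3% in TLR9agonist_LW.

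The other 7 genes were low outside the epidermis. Cers3 reached at most 2.29 CPM in any of the 9 classes in WT_LW and 3.19 CPM in TLR9agonist_LW, and Alox12b at most 0.202 and 2.81 CPM. Elovl4 lay between 0 and 20.7 CPM in WT_LW, highest in fibroblasts, and between 7.32 and 37.5 CPM in TLR9agonist_LW, highest in mast cells. Elovl3 and Far2 were lower in TLR9agonist_LW in 7 of the 9 classes each and higher in none. Far2 reached at most 10.3 CPM, from 9 UMIs in the mast cells of WT_LW. The fibroblasts of WT_LW had 3.08 CPM of Elovl3 and those of TLR9agonist_LW 0.0677 CPM, with Fa2h at 4.36 and 0.0677, and Far2 at 4.56 and 0.372. Traces of Abca12 were higher in TLR9agonist_LW in 8 of the 9 classes, for example 0.737 and 1.96 CPM in fibroblasts. Cells set aside as mixed held 8.12% of all Elovl3 UMIs in WT_LW, and 14.5% of all Cers3 and 17.7% of all Abca12 UMIs in TLR9agonist_LW.

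Other genes of the same pathways, 96 in 6 lists, were counted in the same keratinocytes. Of the 83 with at least 50 UMIs, 38 were at least 2-fold lower in TLR9agonist_LW and 3 at least 2-fold higher, beside 24.8% and 2.07% of all genes. Relative to the median gene, 20 were lower and 6 higher, beside 7.61% and 5.85% of all genes. Without sebocyte-like cells 12 of 78 were lower and 2 higher, beside 21.8% and 2.03%. Relative to the median gene there, 5 were lower and 6 higher, beside 6.28% and 5.65%. The list of sebaceous lipids had 9 of 11 measured genes lower and 0 higher, with a median log2 ratio of -2.02 beside -0.58 for all genes, and holds markers that gated the sebocyte-like cells. Awat1 had 190 UMIs in WT_LW and 0 in TLR9agonist_LW, so it was listed at 18.0 and 0 CPM. Pparg, the nuclear receptor of sebocyte and fat cell differentiation, was at 10.9 and 0.335 CPM, while Far1 (29.0 and 14.8 CPM) and Dgat2 (37.3 and 21.7 CPM) had the smallest gaps of that list. Without sebocyte-like cells 2 of 8 measured genes of this list were lower.

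Fatty acid synthesis and desaturation had 7 of 9 measured genes lower and 0 higher, beside 24.8% and 2.07% of all genes, with a median of -1.58. Scd3, a close relative of Scd1, was at 7.38 and 0.0838 CPM, from 78 and 2 UMIs, and Acacb, which makes malonyl-CoA, at 23.7 and 0.293 CPM, with 98.7% and 95.2% of their WT_LW UMIs in sebocyte-like cells. Srebf1, the transcription factor of fatty acid synthesis, was at 32.8 and 19.98 CPM, and Scd2 at 54.4 and 28.5 CPM. Reads of the near-identical Scd genes may be split between them by the authors' counting. Without sebocyte-like cells 1 of 7 was lower, Acaca, at 29.5 and 11.4 CPM, beside 21.8% of all genes.

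In the acylceramide and lipid envelope list 8 of 17 measured genes were lower and 1 was higher, beside 24.8% and 2.07% of all genes. The median was -0.85, beside -0.58 for all genes. Without sebocyte-like cells 3 were lower and none higher, beside 21.8% and 2.03%. Elovl6, the elongase from palmitate to stearate, had a pattern like that of the sebocyte group, at 560 and 18.8 CPM with 96.9% of its WT_LW UMIs in sebocyte-like cells. Elovl5 was at 44.5 and 6.03 CPM, with 79.6% there. Alox12e, an epidermal lipoxygenase, was at 46.2 and 6.53 CPM with 0.615% of its WT_LW UMIs in sebocyte-like cells. It was among the leading genes of upper hair follicle-like cells, which were 14.1% of the keratinocytes of WT_LW and 5.57% in TLR9agonist_LW. The part of these shares in the difference of Alox12e was not tested. Pnpla1, which makes the acylceramide ester bond, was at 12.4 and 4.17 CPM without sebocyte-like cells. Tgm1, the transglutaminase of the cornified envelope, was at 27.1 and 57.3 CPM, and Abhd5, the lipase cofactor of Pnpla1, at 77.3 and 91.8 CPM.

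Of the ceramide backbone and turnover list, 7 of 20 measured genes were lower and 2 higher, beside 24.8% and 2.07% of all genes. The median was -0.64, close to the -0.58 of all genes. Ugcg, which makes glucosylceramide, the form loaded by Abca12, was at 48.4 and 165 CPM, and its log2 ratio was 1.77, with an interval from 1.63 to 1.90. Sgms1, which makes sphingomyelin, was at 43.5 and 110 CPM. Cers2 was at 11.1 and 3.48 CPM and Smpd1, acid sphingomyelinase, at 14.4 and 5.57 CPM. Ugcg and Sgms1 were at 50.3 and 166 CPM and at 45.5 and 110 CPM without sebocyte-like cells.

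Cholesterol synthesis had 5 of 21 genes lower and 0 higher, beside 24.8% and 2.07% of all genes. Its median was -0.55, close to the -0.58 of all genes. Lss, which closes the sterol rings, was at 20.2 and 6.87 CPM, and Sc5d, a late sterol desaturase, at 24.0 and 33.1 CPM. Lipid binding and nuclear receptors had 2 of 5 genes lower, beside the same 24.8%, Fabp4 at 64.1 and 8.55 CPM and Rxra at 63.3 and 29.95 CPM. Fabp5, the fatty acid binding protein of the epidermis, was at 14488 and 17576 CPM, and Ppard at 37.1 and 28.6 CPM.

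The likeness of the 10 genes was measured as Pearson's r of log2(CPM + 10) over 34 profiles, 17 classes and subsets in each library. These profiles share libraries and differ in depth, so r is a description. Elovl3 and Far2 had r = 0.98 with each other, Elovl3 and Fa2h 0.93, and Fa2h and Scd1 0.91. Cers3 and Abca12 had 0.83, Abca12 and Aloxe3 0.82, and Alox12b and Aloxe3 0.78. Elovl4 stood between the groups, with 0.76 to Abca12, 0.71 to Cers3, 0.48 to Elovl3 and 0.46 to Scd1. The synthases Cers3 and Cers4 had r = -0.48.

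Among all genes with at least 200 UMIs, those most like Elovl3 were Acoxl, Reep6 and Far2 (r from 0.98 to 0.99), those most like Far2 were Elovl3, Acoxl and Reep6 (0.97 to 0.98), and those most like Fa2h were Dhrs7, Elovl6 and Elovl3 (0.93 to 0.94). Scd1 was near Elovl6 (0.95) and Pcx (0.93), and Cers4 to Tmem109, Lonp2 and Tbc1d20 (0.89 to 0.92). Elovl4 was nearest to Fut2, Acer1, an epidermal ceramidase, and Ly6g6e (0.92 to 0.93). Abca12 was nearest to Grhl1, Polr3g and Mal2 (0.95 to 0.97), Cers3 to Gsdmc, Endou and Them5 (0.95 to 0.96), Alox12b to Klk9, Rptn and Wfdc5 (0.94 to 0.95), and Aloxe3 to Serpinb6c, 2300005B03Rik and Slc28a3 (0.86 to 0.87).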

How the data were processed

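The authors aligned the reads with Cell Ranger (4.0.0 in the file headers; fastp, Seurat and the build mm9 are named in the submitters' processing notes) and deposited the raw UMI counts of every gene in every cell, and no other values were used. The files hold no coordinates, so positions come from GENCODE of GRCm38 by Ensembl identifier. The 10 genes, the marker lists and the pathway lists were chosen with earlier results of these data known.

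The filter kept 11443 and 13206 cells, each with 500 or more UMIs and 300 or more genes, and with mitochondrial UMIs at 15% or less. Doublets were scored with Scrublet in scanpy 1.11.5 and the top 1048 and 1395 cells removed, at 0.8% per 1000 cells. Each cell was scored for each marker list as log2 of its marker UMIs plus 1 over those expected from the library's median share plus 1. A class needed a score of at least 2, a lead of at least 1 over any other class and at least 3 markers, and cells with no such lead were set aside as mixed (1010 and 984) or unassigned (1082 and 1118). Sebocyte-like cells needed a score of at least 3, at least 3 markers and 3 UMIs of Cidea, Awat1, Awat2, Dgat2l6 or Mc5r. These thresholds were set after the marker scores were seen. Near the keratinocyte threshold lay 73 and 203 cells and near the sebocyte threshold 20 in all. Inner root sheath-like cells (2 in each library) were not described, and 13 keratinocytes of WT_LW fitted no subset.

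A group's UMIs of a gene were divided by all of its UMIs to give CPM, with exact Poisson 95% intervals. Ratios have the exact interval given the total, and shares have Clopper-Pearson intervals. All cover counting error only. Genes needed 50 UMIs over both libraries to be counted as 2-fold lower or higher. Text names the 10 genes, the 2 highest and 2 lowest ratios of each list, and the 3 genes nearest to each member, except a few that are not reported here; other genes were chosen after their values were seen. Ratios were tested on simulated data. Alternatives were a stricter cell filter, doublets kept, Leiden clusters (leidenalg 0.10.2), a stricter gate, no shared barcodes, equal weight per cell, median-centred scaling, a standard subset make-up, leaving out sebocyte-like or granular-like cells, and 10 UMIs. Keeping mixed cells, a minimum of 5000 UMIs and leaving sebocyte-like cells out of the pathway counts were added after seeing the data. Python 3.11.15, numpy 2.4.6, scipy 1.17.1 and pandas 2.3.3 were used.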

Additional observations from a re-analysis of the deposited data

Results flagged for a closer look

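Fa2h had opposite directions in keratinocytes and Schwann cells, with a log2 ratio of TLR9agonist_LW to WT_LW of -7.25 in the former and 0.57 in the latter. Elovl4, at -1.74 in keratinocytes, was at 0.50 in T or NK lymphocytes, 0.58 in macrophages or dendritic cells, 1.41 in pericytes or smooth muscle and 1.71 in mast cells, where it had 10 and 51 UMIs. Its levels in these classes were low. In the same order they were 8.11 and 11.5, 4.90 and 7.32, 6.37 and 16.9, and 11.5 and 37.5 CPM. The part of free RNA in them was not tested. In fibroblasts Elovl4 was lower in TLR9agonist_LW, as in keratinocytes, at -1.26 (-1.50 to -1.01). In keratinocytes without sebocyte-like cells the log2 ratio of Elovl4 was -0.22, which is 0.33 relative to the median gene of those cells. These differences between cell classes were not tested, because each group is 1 library.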

How the results depend on the processing

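The number of members at least 2-fold lower in keratinocytes was 6, and it was 5 with a standard subset make-up and 2 without sebocyte-like cells, where Elovl3, Fa2h and Far2 had under 50 UMIs and Elovl4 was under 2-fold. It stayed at 6 under the other settings. The sebocyte-like share had a log2 ratio of -3.82, and between -5.30 (Leiden clusters) and -3.02 (doublets kept) under the 6 alternatives. Of the 96 pathway genes 38 were at least 2-fold lower, 20 with median-centred scaling (beside 6 higher, against 3) and 12 without sebocyte-like cells, a setting chosen after seeing the data. Scd1 in Schwann cells of WT_LW was at 143 CPM and at 144 CPM with Leiden clusters, and Elovl4 in granular-like cells at 582 CPM and at 615 CPM with a clearer lead of the score. Of 120 ratios of single members under the alternatives, 81 lay within the interval of the ratio as reported, and 39 outside it. The sign turned in 6 of the 120, in 5 for Cers3 and 1 for Alox12b, both with intervals as reported that hold 0. With a standard subset make-up the WT_LW and TLR9agonist_LW levels of Scd1 were 251 and 191 CPM. No paired analysis was possible because each group has 1 library. Depth limits Alox12b and Aloxe3, and 36 and 4 sebocyte-like cells limit every value drawn from them.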
